A study of Mus musculus with 22 samples.

Results

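Transcript levels of 10 prostanoid genes were described in the distal colon of mice with and without chronic colitis. The genes were taken by symbol and made up 10 of the 46078 rows of the count table. They were the cyclooxygenases Ptgs1 and Ptgs2, the terminal synthases Ptges, Ptgis and Tbxas1, the breakdown enzyme Hpgd, and the prostaglandin E2 receptor genes Ptger1, Ptger2, Ptger3 and Ptger4. Poly-A RNA was sequenced from 22 libraries, 1 for each mouse named in the labels. C57BL/6 mice (n = 8, 4 male and 4 female) were wild-type controls aged 14 weeks. Winnie mice (n = 7, 3 male and 4 female), also aged 14 weeks, carry a missense mutation in Muc2, the gene of the main secreted mucin of the colon, and develop colitis without any added agent. Winnie-Prolapse mice (n = 7, 4 male and 3 female) were Winnie mice with prolapse, aged 18 weeks and labelled as severely inflamed. The labels give no drug treatment for any group, and per the study's methods Winnie and C57BL/6 mice came from 1 breeding colony as littermates. Age and prolapse cannot be told apart in the comparisons with Winnie-Prolapse, because no other group was 18 weeks old. Each library came from a whole tissue segment, so fewer cells of a type and less RNA per cell cannot be told apart for any gene below.

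Prostanoids are short-lived lipid signals made from arachidonic acid. Phospholipases free the acid from membranes, a cyclooxygenase turns it into prostaglandin H2, and terminal synthases convert that intermediate into prostaglandin E2, prostacyclin, thromboxane and others. In the colon, prostaglandin E2 acts through G protein-coupled receptors on epithelium, stroma, immune cells and muscle, is known to support the mucosal barrier and repair, and is cleared by uptake and oxidation. Ptgs1 is generally the constitutive cyclooxygenase and Ptgs2 the inducible one.

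The sequence before the start of a gene is shown for the 3 genes with the clearest higher levels in Winnie-Prolapse and for Ptger3, the receptor gene with the clearest lower level, because these genes moved in opposite directions. Promoter sequences from RefSeq (GRCm38.p6) were matched by symbol for 8 of the 10 genes. Each sequence is the 250 bases before the start, on the strand of the gene and written 5′ to 3′, with matches to the letters searched in capitals.
Ptgs2, chr1:150099781-150100030, plus strand: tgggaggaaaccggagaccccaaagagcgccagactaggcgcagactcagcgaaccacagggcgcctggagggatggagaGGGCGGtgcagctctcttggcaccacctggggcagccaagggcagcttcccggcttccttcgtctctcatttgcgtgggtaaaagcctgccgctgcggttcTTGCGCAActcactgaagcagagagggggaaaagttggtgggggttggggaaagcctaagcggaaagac
Ptges, chr2:30903298-30903547, minus strand: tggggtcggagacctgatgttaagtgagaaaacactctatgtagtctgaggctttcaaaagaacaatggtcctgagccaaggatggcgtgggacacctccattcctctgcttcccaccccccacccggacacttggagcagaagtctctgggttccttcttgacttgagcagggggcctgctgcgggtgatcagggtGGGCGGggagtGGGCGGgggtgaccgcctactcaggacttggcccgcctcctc
Tbxas1, chr6:38918736-38918985, plus strand: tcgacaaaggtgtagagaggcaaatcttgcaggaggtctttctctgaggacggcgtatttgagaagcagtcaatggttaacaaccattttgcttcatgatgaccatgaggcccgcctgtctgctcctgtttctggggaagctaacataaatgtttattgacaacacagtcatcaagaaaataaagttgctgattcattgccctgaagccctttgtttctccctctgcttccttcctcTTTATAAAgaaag
Ptger3, chr3:157566626-157566875, plus strand: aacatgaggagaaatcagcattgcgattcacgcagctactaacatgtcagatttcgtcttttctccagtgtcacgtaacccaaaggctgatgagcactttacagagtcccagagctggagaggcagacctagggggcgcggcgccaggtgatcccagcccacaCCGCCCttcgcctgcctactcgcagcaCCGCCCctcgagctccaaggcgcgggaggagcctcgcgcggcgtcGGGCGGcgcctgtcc
A further 25 bases of Ptgs2 after its start are shown for the matches they hold.
Ptgs2 after the start, chr1:150100036-150100060, plus strand: caccactaCGTCACGTGgagtccgc

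5 short motifs were searched on both strands in a 300-base window, from 250 bases before to 50 bases after each start. The letters were TATAAA for the TATA box, GGGCGG for the GC box, CACGTG for the E-box, TGACG for the half-site of the cyclic AMP response element and TTGCGCAA for a C/EBP palindrome. Ptgs2 held a GC box from 170 to 165 bases before the start and the C/EBP palindrome from 69 to 62 bases before it. After the start, Ptgs2 held the reverse strand of the half-site at bases 14 to 18, overlapping an E-box at bases 17 to 22. Over 32851 RefSeq promoters of the same length, the C/EBP palindrome was in 0.183%, the E-box in 7.15% and the half-site in 20.8%. Ptges held 2 GC boxes and Ptger3 held 3, and 35.7% of all promoters held at least 1. Tbxas1 held the TATA letters on both strands, overlapping each other, within 13 bases of its RefSeq start, and 13.6% of all promoters held them. The RefSeq starts of Tbxas1 and Ptges lie inside the longer spans of these genes in the GENCODE annotation. The windows of Ptgs1 and Ptger2 held none of the 5. A match says only that these letters are present, and their absence only that they are not in this window.

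Depth ranged from 24817527 to 36344372 counts per library. Levels are given as CPM, counts scaled to a library total of 1000000, on which 3 counts were worth 0.0825 to 0.121 CPM. All 10 genes passed the filter on low counts in each comparison, and the lowest count of any of them in any library was 17, for Ptger2 in C57BL/6 replicate 2. Colonocyte markers were detected in every library, with a summed level over 8 genes of 6961 to 10197 CPM in C57BL/6, 4389 to 10450 CPM in Winnie and 2319 to 8067 CPM in Winnie-Prolapse. Certain libraries stood apart. C57BL/6 replicate 7 had a summed smooth muscle level of 12527 CPM against 6901 to 9110 CPM in the other 7. Its tuft cell sum was 90.1 CPM against 18.5 to 36.1 CPM, and its goblet cell sum 4140 CPM against 8260 to 12287 CPM. Its neutrophil sum was 4.17 CPM against 243 to 359 CPM, and its macrophage sum 76.5 CPM against 119 to 163 CPM. Its mast cell sum was 0.652 CPM against 2.75 to 3.58 CPM, and its enteric neuron and glia sum 113 CPM against 45.6 to 77.5 CPM. Winnie-Prolapse replicate 6 had 18.0% of its counts in 7 milk and mammary genes. Winnie-Prolapse replicate 7 had the highest squamous sum, 3325 CPM, where all 8 C57BL/6 libraries were at or under 2.93 CPM. Squamous sums were 1718, 922, 176 and 240 CPM in Winnie-Prolapse replicates 2, 4, 5 and 6. Winnie-Prolapse replicates 1 and 3 held 4.79 and 2.33 CPM. Winnie replicate 2 held 52.0 CPM of squamous markers, and the other Winnie libraries 3.62 CPM or less. Winnie-Prolapse replicate 6 was also the lowest library of its group for 5 of the 10 genes, Ptgis, Hpgd, Ptger1, Ptger3 and Ptger4. Its total includes the mammary counts, which lowers the CPM of all its other genes. It held 2.14, 1.45 and 20.7 CPM of Ptgis, Ptger1 and Ptger4, where the next lowest libraries held 2.41, 1.57 and 24.8 CPM. For these 3 genes its place as lowest depends on the mammary counts.

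Hpgd was by far the most abundant of the 10 genes per length, and the order of the others differed between groups. Levels of different genes were compared as CPM per kilobase of merged exons, since longer transcripts collect more counts. In C57BL/6, Hpgd had 128 ± 15.2 CPM per kb (SD, n = 8), and its lowest library lay above the highest of every other member. Ptgs1 followed at 5.35 ± 2.94 CPM per kb, and Ptger4, Ptgis, Ptger3 and Ptges lay between 4.10 and 2.01 CPM per kb. The ranges of each of these 5 genes overlapped that of the next gene in the order. The order of 3 of them turned without C57BL/6 replicate 7, to Ptger3 at 3.69, Ptgis at 3.61 and Ptger4 at 3.30 CPM per kb (n = 7), and Tbxas1 at 0.233 came ahead of Ptger2 at 0.206 CPM per kb. Ptgs2 ranked the seventh with 1.16 ± 0.50 CPM per kb, ahead of Ptger1, Ptger2 and Tbxas1, which lay between 0.711 and 0.225 CPM per kb. In Winnie, Ptges at 2.97 and Ptgs2 at 2.83 CPM per kb ranked the fourth and the fifth with overlapping ranges. In Winnie-Prolapse, Ptgs2 ranked the second with 14.1 ± 13.1 CPM per kb (n = 7), behind Hpgd at 54.3 ± 25.1 CPM per kb. Ptgs2 was above Ptges, the next gene, in 6 of the 7 Winnie-Prolapse libraries, and Hpgd was above Ptgs2 in 6 of 7.

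**Figure D1:**
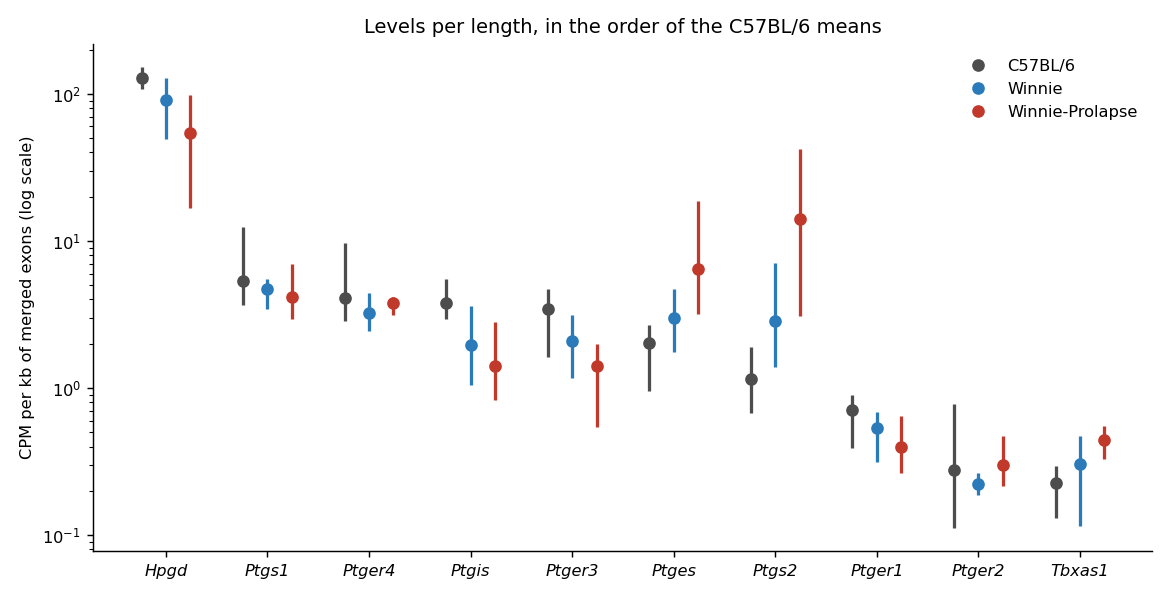
Level per length of each gene (CPM per kb of merged exons, log scale) in the order of the C57BL/6 means; points are group means and lines run from the lowest to the highest library (n = 8 C57BL/6, 7 Winnie, 7 Winnie-Prolapse). Ptgs2 moves from the seventh place in C57BL/6 (1.16 CPM per kb) to the second in Winnie-Prolapse (14.1 CPM per kb), and Hpgd stays first.

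Differences between groups were tested with edgeR over all genes, and calls needed an adjusted p below 0.001 together with a change of 1.5-fold or more. A second, looser rule used an adjusted p under 0.05 with the same fold. Between Winnie-Prolapse and C57BL/6, 5 of the 10 were called, 3 higher and 2 lower. Of the 17397 genes tested, 18.3% were called, 9.84% higher and 8.47% lower. By the second rule 7 of the 10 passed, 3 higher and 4 lower, against 34.4% of all genes, 16.7% higher and 17.7% lower. The CPM of the groups did not overlap for 3 genes that were higher and 2 that were lower in Winnie-Prolapse, against 6.5% and 9.45% of all genes. Without Winnie-Prolapse replicates 6 and 7, a choice made after seeing the data, 1 of the 10 was called, Ptgs2, and 7 passed the second rule, where 12.4% and 32.4% of 17741 genes did so. Without Winnie-Prolapse replicate 6 alone, 2 were called and 7 passed the second rule, against 15.3% and 32.6% of 17542 genes. Without C57BL/6 replicate 7, 4 were called and 8 passed the second rule, against 20.1% and 35.3% of 17295 genes. Between Winnie and C57BL/6, edgeR called none of the 10, although 6 had an unadjusted p under 0.05. DESeq2 also called 0 of the 10 there, where it called 1227 genes in all. By the second rule edgeR found 2 higher and 2 lower of the 10, and none of the 10 was without overlap. Of the 17289 genes tested there, 0.0925% were called, 39.9% had an unadjusted p under 0.05, 15.9% passed the second rule (7.42% higher and 8.53% lower) and 1.64% did not overlap. In Winnie-Prolapse against Winnie, edgeR called none of the 10 and 0% of the 17041 genes. Its unadjusted p was under 0.05 for 7 of the 10 and for 27.8% of all genes. DESeq2 called 1 of the 10 there, where it called 653 genes in all. With edgeR 1 of the 10 passed the second rule, being higher, against 6.99% of all genes and 4.27% higher. None of the 10 was without overlap, against 0.962% of all genes. The comparisons with C57BL/6 share their control libraries, so they are given side by side and are not independent of each other.

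**Figure D2:**
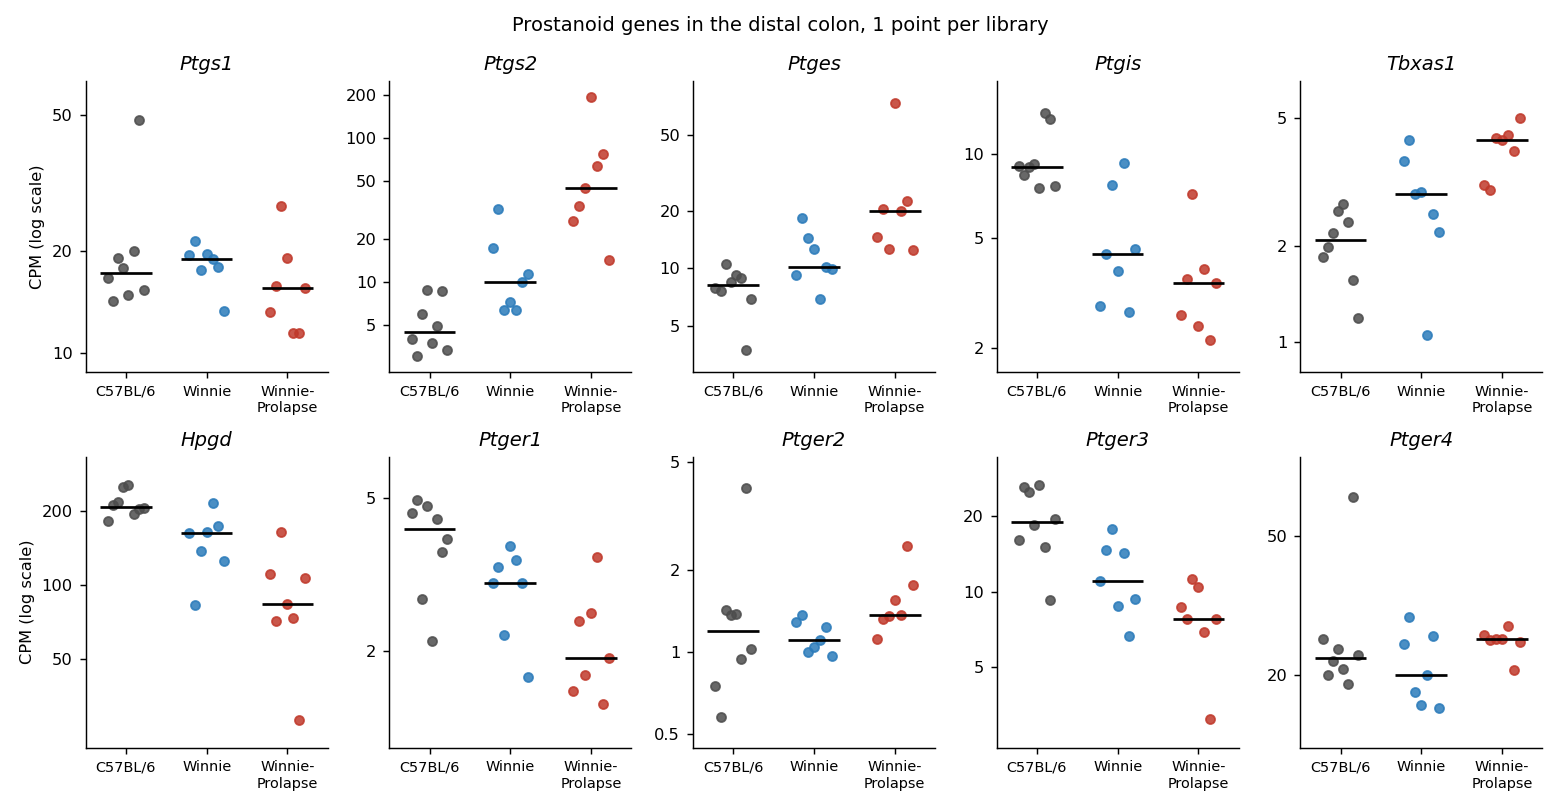
CPM of the 10 genes in each library (log scale, a separate axis for each gene), with 1 point per library and a line at the group median, for 8 C57BL/6, 7 Winnie and 7 Winnie-Prolapse mice. Ptgs2, Ptges and Tbxas1 lie above every C57BL/6 library in all 7 Winnie-Prolapse mice, Ptgis and Hpgd lie lower in all 7, and a single C57BL/6 library stands high for Ptgs1, Ptger2 and Ptger4.

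Among the cyclooxygenases, Ptgs2 was higher in both colitis groups and Ptgs1 passed neither rule in any comparison. Ptgs2 (ENSMUSG00000032487, chr1:150100031-150108227, plus strand, GRCm38) encodes the inducible cyclooxygenase, and the promoter printed above with the C/EBP palindrome is its own. Its level in C57BL/6 ran from 3.08 to 8.75 CPM with a median of 4.48 CPM. In Winnie it ran from 6.40 to 32.2 CPM with a median of 9.92 CPM. In Winnie-Prolapse it ran from 14.2 to 192 CPM with a median of 44.8 CPM. All 7 Winnie-Prolapse libraries were above all 8 C57BL/6 libraries, 4 of the 7 Winnie libraries were above all C57BL/6 libraries, and 5 of the 7 Winnie-Prolapse libraries were above all Winnie libraries. In Winnie-Prolapse against C57BL/6 the log2 fold change of Ptgs2 was 3.67 ± 0.47 (SE), 12.7-fold, with an edgeR adjusted p of 1.77e-05. Between Winnie and C57BL/6 it was 1.37 ± 0.35, 2.58-fold (edgeR adjusted p = 0.0136). In Winnie-Prolapse against Winnie it was 2.32 ± 0.53, 4.98-fold (edgeR adjusted p = 0.0229), and without Winnie replicate 4 this missed the second rule with an adjusted p of 0.0528.

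Single libraries set part of the size of the Ptgs2 means. Winnie-Prolapse replicate 4 held 192 CPM, and without it the group mean went from 64.7 ± 60.1 (SD, n = 7) to 43.6 ± 23.8 CPM (SD, n = 6). Without that library the log2 fold change against C57BL/6 was 3.20 ± 0.38 (edgeR adjusted p = 1.44e-05), and against Winnie it was 1.83 ± 0.46 (edgeR adjusted p = 0.0464). Winnie replicate 2 held 32.2 CPM, and without it the log2 fold change of Winnie against C57BL/6 was 0.99 ± 0.30 (edgeR adjusted p = 0.0358). The same library was the highest Winnie library for 6 of the 10 genes and the lowest for Hpgd. Against C57BL/6, Ptgs2 was called in Winnie-Prolapse in all 15 fits that each left out 1 library.

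Markers of neutrophils, which are known to accumulate in colitis, were higher alongside Ptgs2. Of 7 such genes, 4 of the 5 tested were called higher in Winnie-Prolapse against C57BL/6, and 2 of 3 passed the second rule in Winnie. S100a8, a calprotectin subunit gene, ran from 0.0342 to 0.617 CPM in C57BL/6, from 0.0984 to 36.2 CPM in Winnie and from 21.4 to 356 CPM in Winnie-Prolapse. Of the 5 genes tested, S100a8, S100a9 and Retnlg held at most 16, 16 and 3 counts in any C57BL/6 library. They passed the filter on low counts through the Winnie-Prolapse libraries, so a lower call was hardly possible for them. The highest library of each colitis group for S100a8 was also its highest for Ptgs2, Winnie replicate 2 and Winnie-Prolapse replicate 4. The summed level of the list was also highest in Winnie-Prolapse replicate 4. In Winnie it was highest in replicate 7, at 651 CPM against 438 CPM in replicate 2. Ly6g held 639 of the 651 CPM in replicate 7. The highest Winnie values of S100a9, Cxcr2, Csf3r and Retnlg were in replicate 2, at 38.9, 7.34, 35.4 and 3.72 CPM. Ly6g differed from S100a8 in level, with a median of 286 CPM in C57BL/6 where S100a8 had 0.11 CPM. The summed level of the 7 genes was 4.17 to 359 CPM in C57BL/6, 312 to 651 CPM in Winnie and 525.7 to 1761 CPM in Winnie-Prolapse. The 4.17 CPM was C57BL/6 replicate 7, and the other 7 C57BL/6 libraries held 243 to 359 CPM. In C57BL/6 Ly6g held most of each sum, including 3.80 of the 4.17 CPM. Winnie replicate 2 and Winnie-Prolapse replicate 4 were also the highest of their groups for the fibroblast sum, at 1158 and 1601 CPM. The same held for the endothelial sum, at 124 and 181 CPM. Their squamous sums were 52.0 and 922 CPM, where the other Winnie libraries held 3.62 CPM or less. Winnie-Prolapse replicates 2 and 7 had higher squamous sums than replicate 4. The part of neutrophils or of these other cell types in the Ptgs2 result was not tested. Mast cell markers were called higher for 3 of 4 genes tested in Winnie-Prolapse, and none of 6 fibroblast and none of 5 mesothelial markers was called. By the second rule 3 of the 6 fibroblast markers were higher and 0 lower, and 0 of the 5 mesothelial markers passed. The mast cell gene Mcpt2 held at most 13 counts in any C57BL/6 library and passed the filter through Winnie-Prolapse. Mammary genes passed the second rule for 5 of 5 tested, but their sum was 180157 CPM in Winnie-Prolapse replicate 6 and 3.33 to 54.7 CPM in the other 6 libraries of that group, where C57BL/6 held 1.88 to 25.04 CPM. Without that library the median log2 fold change over the genes tested went from 13.36 to 1.92, and 4 of 5 passed the second rule.

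Ptgs1 (ENSMUSG00000047250, chr2:36230426-36252272, plus strand), the constitutive cyclooxygenase, had a C57BL/6 range of 14.2 to 48.6 CPM with a median of 17.2 CPM. Winnie libraries held 13.3 to 21.4 CPM with a median of 18.9 CPM, and Winnie-Prolapse libraries 11.4 to 27.0 CPM with a median of 15.6 CPM. The groups overlapped, and the C57BL/6 maximum of 48.6 CPM belonged to replicate 7, where the next library held 19.9 CPM. Tuft cells are known to express Ptgs1, and the summed tuft cell level was highest in the same library, at 90.1 CPM. Its part in the Ptgs1 value was not tested. The log2 fold change was -0.11 in Winnie (95% confidence interval -0.60 to 0.39, edgeR adjusted p = 0.755) and -0.28 in Winnie-Prolapse (-0.87 to 0.32, adjusted p = 0.419), both against C57BL/6. Without C57BL/6 replicate 7 both differences changed sign, to 0.20 and 0.046, and neither passed a rule.

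Ptgs2 took a larger share of the cyclooxygenase transcripts in the colitis groups. It made up 18.3% ± 5.03 (SD, n = 8) of their summed CPM per kb in C57BL/6, 34.7% ± 12.8 (n = 7) in Winnie and 69.6% ± 16.7 (n = 7) in Winnie-Prolapse. The highest C57BL/6 library reached 29.5% and the lowest Winnie-Prolapse library 43.7%, so these groups did not overlap, while Winnie spanned 22.4% to 56.1%. The log2 ratio of Ptgs2 to Ptgs1 CPM, with 0.5 CPM added to each, averaged -1.85 ± 0.42 for C57BL/6, -0.69 ± 0.79 for Winnie and 1.59 ± 1.24 for Winnie-Prolapse (SD). The log2 ratio of Ptgs2 to Hpgd, which sets synthesis against breakdown, was -5.30 ± 0.53, -3.67 ± 1.19 and -0.77 ± 1.65 in the same order. These ratios of CPM compare groups, and their sign does not order the genes, whose lengths differ. Per kb, Hpgd was above Ptgs2 in all 8 C57BL/6, all 7 Winnie and 6 of the 7 Winnie-Prolapse libraries. Both ratios are descriptions and were not tested.

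**Figure D3:**
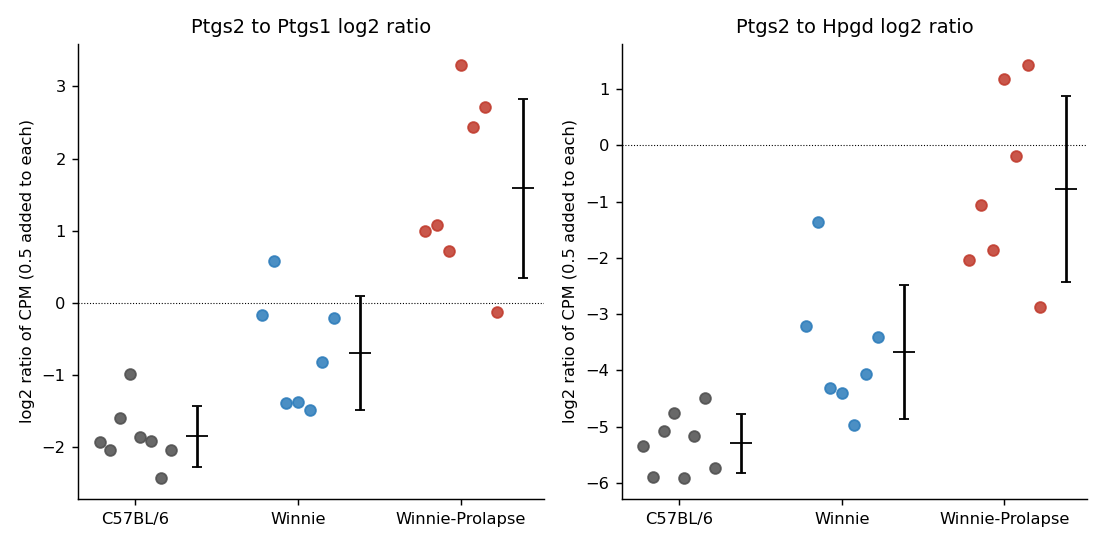
Log2 ratio of Ptgs2 to Ptgs1 (left) and of Ptgs2 to Hpgd (right) in CPM with 0.5 added to each, 1 point per library, with the group mean and SD drawn beside the points (n = 8 C57BL/6, 7 Winnie, 7 Winnie-Prolapse). The mean Ptgs2 to Ptgs1 ratio goes from -1.85 in C57BL/6 to 1.59 in Winnie-Prolapse, and the mean Ptgs2 to Hpgd ratio from -5.30 to -0.77; the dotted line at 0 marks equal CPM, not equal level per length.

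The terminal synthases moved in different directions. Ptges and Tbxas1 were higher and Ptgis was lower in Winnie-Prolapse than in C57BL/6, each called by the first rule. Ptges (ENSMUSG00000050737, chr2:30889471-30929863, minus strand) encodes the inducible microsomal prostaglandin E synthase, which acts next to Ptgs2. C57BL/6 libraries held 3.73 to 10.6 CPM of Ptges with a median of 8.16 CPM. Winnie libraries held 6.89 to 18.5 CPM with a median of 10.2 CPM, and Winnie-Prolapse libraries 12.5 to 73.5 CPM with a median of 20.04 CPM. All Winnie-Prolapse libraries were above all C57BL/6 libraries, while Winnie overlapped both. The log2 fold change of Ptges was 1.72 ± 0.34 in Winnie-Prolapse, 3.29-fold (edgeR adjusted p = 0.000583), and 0.63 ± 0.21 in Winnie, 1.55-fold (adjusted p = 0.0369). Ptges in Winnie missed the second rule without normalisation factors (log2 fold change 0.56, under 1.5-fold) and in the joint fit of the 3 groups (0.63, edgeR adjusted p = 0.134), and in Winnie-Prolapse it missed the first rule without normalisation factors (adjusted p = 0.00102). In Winnie-Prolapse against Winnie it was 1.09 ± 0.36 and passed neither rule (edgeR adjusted p = 0.0674).

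Winnie-Prolapse replicate 4, which held 922 CPM of squamous markers, was again the highest library for Ptges, at 73.5 CPM where the next held 22.5 CPM. Without it the Ptges mean of Winnie-Prolapse was 17.1 ± 4.36 CPM (SD, n = 6) in place of 25.2 ± 21.7 CPM (SD, n = 7), and the log2 fold change against C57BL/6 was 1.24 ± 0.21 (edgeR adjusted p = 0.000251). Ptges stayed called against C57BL/6 in 8 of the 15 fits that left out 1 library. The edgeR adjusted p was 0.00112 to 0.0017 without C57BL/6 replicate 1, 2, 4, 5, 6 or 8 or Winnie-Prolapse replicate 6, and all 15 fits passed the second rule. Between Winnie and C57BL/6, Ptges missed the second rule without C57BL/6 replicate 1, 2, 4, 7 or 8 or Winnie replicate 2, 3, 4 or 6, with adjusted p from 0.0365 to 0.0858. Without C57BL/6 replicate 7 it was the 1.5-fold limit that was missed, with a log2 fold change of 0.53. In Winnie-Prolapse against Winnie, Ptges reached the second rule without Winnie replicate 2 (edgeR adjusted p = 0.0444) and without Winnie-Prolapse replicate 3 (0.044).

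Tbxas1 (ENSMUSG00000029925, chr6:38875404-39084585, plus strand), the thromboxane synthase gene, known for its expression in platelets and macrophages, was a low-level member. Its range was 1.19 to 2.70 CPM in C57BL/6 (median 2.09), 1.05 to 4.26 CPM in Winnie (median 2.89) and 2.97 to 5.00 CPM in Winnie-Prolapse (median 4.26). Winnie-Prolapse lay above C57BL/6 without overlap, and Winnie spanned both. The log2 fold change of Tbxas1 in Winnie-Prolapse was 1.06 ± 0.19 against C57BL/6, 2.09-fold (edgeR adjusted p = 0.000327). It was 0.53 ± 0.25 in Winnie (adjusted p = 0.121) and 0.54 ± 0.25 between the colitis groups (adjusted p = 0.179), and neither passed a rule. Without Winnie replicate 5, the difference between Winnie and C57BL/6 reached the second rule at 0.67 (edgeR adjusted p = 0.0141). Against C57BL/6, Winnie-Prolapse kept the first rule in 13 of 15 fits that left out 1 library, with adjusted p of 0.00121 without C57BL/6 replicate 2 and 0.00136 without Winnie-Prolapse replicate 7. Macrophage markers moved with it: all 7 were called higher in Winnie-Prolapse against C57BL/6 (4 without Winnie-Prolapse replicates 6 and 7), and their summed level was 76.5 to 163 CPM in C57BL/6, 112 to 313 CPM in Winnie and 242 to 433 CPM in Winnie-Prolapse. Of 5 platelet markers, 4 were tested and 1 was called higher, and by the second rule 2 were higher and 1 lower. Their part in the Tbxas1 result was not tested.

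Ptgis (ENSMUSG00000017969, chr2:167191805-167240604, minus strand) encodes prostacyclin synthase, known for expression in vessel walls and smooth muscle. C57BL/6 libraries held 7.52 to 14.1 CPM (median 9.0), Winnie libraries 2.70 to 9.25 CPM (median 4.36) and Winnie-Prolapse libraries 2.14 to 7.17 CPM (median 3.42). Winnie-Prolapse lay below C57BL/6 without overlap, and 5 of the 7 Winnie libraries were below all C57BL/6 libraries. Against C57BL/6, the log2 fold change of Ptgis in Winnie-Prolapse was -1.35 ± 0.26 (edgeR adjusted p = 0.000566), 2.54-fold lower, and in Winnie -0.90 ± 0.25 (adjusted p = 0.0169), 1.87-fold lower. Between the colitis groups it was -0.44 ± 0.32 (edgeR adjusted p = 0.399). In Winnie-Prolapse against C57BL/6, Ptgis kept the first rule in 4 of 15 fits that left out 1 library, those without C57BL/6 replicate 2, 5 or 8 or Winnie-Prolapse replicate 3. In the other 11 the edgeR adjusted p was 0.00105 to 0.00173. The second rule held in all 15 fits of this comparison and in all 15 of Winnie against C57BL/6.

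Smooth muscle markers fell alongside Ptgis. All 8 were called lower in Winnie-Prolapse against C57BL/6, all 8 passed the second rule in Winnie, and their summed level was 6901 to 12527 CPM in C57BL/6, 2066 to 7614 CPM in Winnie and 1387 to 3309 CPM in Winnie-Prolapse. Markers of enteric neurons and glia were lower by the second rule for 6 of 6 genes in Winnie and 5 of 6 in Winnie-Prolapse. No endothelial marker was lower by either rule in Winnie or Winnie-Prolapse against C57BL/6. The part of the muscle layer in the Ptgis result was not tested.

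Hpgd, the breakdown enzyme, was lower with prolapse. Hpgd (ENSMUSG00000031613, chr8:56294585-56321043, plus strand) encodes the dehydrogenase that inactivates prostaglandin E2 and is known as a gene of mature colon epithelium. C57BL/6 libraries held 182 to 256 CPM with a median of 208 CPM. Winnie libraries held 83.0 to 216 CPM with a median of 163 CPM, and Winnie-Prolapse libraries 28.4 to 164 CPM with a median of 83.9 CPM. All Winnie-Prolapse libraries lay below all C57BL/6 libraries, and 6 of the 7 Winnie libraries did so too. For Hpgd in Winnie-Prolapse the log2 fold change was -1.14 ± 0.25, 2.21-fold lower, which passed the second rule with an edgeR adjusted p of 0.00136. It was called by DESeq2 (adjusted p = 6.32e-05), in the joint fit of the 3 groups (edgeR adjusted p = 0.000764) and without normalisation factors (0.000631). Over the 15 fits that left out 1 library it ran from -1.38 to -0.98 with an edgeR adjusted p of at most 0.00477, and all 15 passed the second rule. The first rule was met in 1 of them, without Winnie-Prolapse replicate 3 (-1.38 ± 0.21, adjusted p = 7.89e-05). Without Winnie-Prolapse replicate 6, the lowest library and the one with the mammary counts, it was -0.98 ± 0.20 (edgeR adjusted p = 0.00115), and the group mean went from 91.4 to 102 ± 34.9 CPM (SD, n = 6). In Winnie it was -0.41 ± 0.16 (95% confidence interval -0.74 to -0.08, edgeR adjusted p = 0.0631) and passed neither rule. Between the colitis groups it was -0.73 ± 0.30 (adjusted p = 0.131), and without Winnie-Prolapse replicate 3 it passed the second rule at -0.99 (edgeR adjusted p = 0.0295).

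Colonocyte markers also changed with prolapse. Of 8 such genes, 4 were lower and 1 higher by the second rule in Winnie-Prolapse against C57BL/6, and their mean summed level was 8275 ± 1216 CPM (SD, n = 8) in C57BL/6, 7735 ± 2321 CPM (n = 7) in Winnie and 4141 ± 2094 CPM (n = 7) in Winnie-Prolapse. The lowest Hpgd level and the lowest colonocyte sum of Winnie-Prolapse were both in replicate 6, and the highest of both were in replicate 3. Replicate 6 had 18.0% of its counts in mammary genes, which lowers the CPM of its other genes. The next lowest library held 71.4 CPM of Hpgd, but the next lowest colonocyte sum, 2430 CPM, was near the 2319 CPM of replicate 6. The place of replicate 6 as lowest for the colonocyte sum therefore depends on the mammary counts. Without replicate 6 the colonocyte sum of Winnie-Prolapse was 4445 ± 2118 CPM (n = 6), with 3 markers lower and 1 higher by the second rule, and without replicates 6 and 7 it was 2 lower and 0 higher. In Winnie, replicate 2 was the lowest library for both, while Hpgd was highest in replicate 5 and the colonocyte sum in replicate 6. The part of the colonocyte share in the Hpgd result was not tested.

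The 4 receptor genes did not move together. Ptger3 was lower in both colitis groups, Ptger1 was lower in Winnie-Prolapse by the second rule, and Ptger2 and Ptger4 passed neither rule in any comparison. Ptger3 (ENSMUSG00000040016, chr3:157566892-157645888, plus strand) encodes EP3, a receptor known for coupling to inhibition of cyclic AMP. Its promoter, printed above, held 3 GC boxes. C57BL/6 libraries held 9.24 to 26.6 CPM (median 18.99), Winnie libraries 6.64 to 17.9 CPM (median 11.1) and Winnie-Prolapse libraries 3.10 to 11.3 CPM (median 7.76). The C57BL/6 minimum was replicate 7, and the next lowest C57BL/6 library, at 15.1 CPM, lay above all Winnie-Prolapse libraries. The log2 fold change of Ptger3 in Winnie-Prolapse was -1.21 ± 0.24 (edgeR adjusted p = 0.000684), 2.31-fold lower. In Winnie it was -0.66 ± 0.22, 1.58-fold lower, by the second rule (edgeR adjusted p = 0.036). Between the colitis groups it was -0.55 ± 0.23 (edgeR adjusted p = 0.144).

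The Ptger3 calls were close to their limits. In Winnie-Prolapse against C57BL/6 the first rule held in 2 of 15 fits, without C57BL/6 replicate 7 or Winnie-Prolapse replicate 3. In the other 13 the edgeR adjusted p was 0.00117 to 0.00252, and all 15 passed the second rule. In Winnie against C57BL/6 the second rule was missed without C57BL/6 replicate 2, 3 or 5 or Winnie replicate 1, 4, 6 or 7, with adjusted p of 0.0649 to 0.0695.

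Ptger1 (ENSMUSG00000019464, chr8:83666678-83672753, plus strand), the gene of the calcium-linked receptor EP1, held 2.12 to 4.92 CPM in C57BL/6 (median 4.16), 1.71 to 3.75 CPM in Winnie (median 3.00) and 1.45 to 3.50 CPM in Winnie-Prolapse (median 1.91). The groups overlapped, with 4 of the 7 Winnie-Prolapse libraries below all C57BL/6 libraries. Its log2 fold change was -0.79 ± 0.21 in Winnie-Prolapse (edgeR adjusted p = 0.00499, DESeq2 adjusted p = 0.000965), and all 15 fits that left out 1 library passed the second rule. In Winnie it was -0.33 ± 0.20 (adjusted p = 0.241). These values are uncertain, because whether strand was used in counting is not given in the sources used here, and reads of Ptger1 and reads from the opposite strand may not have been told apart.

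Ptger4 and Ptger2 encode EP4 and EP2, receptors that raise cyclic AMP. Ptger4 (ENSMUSG00000039942, chr15:5206661-5244187, minus strand) had the highest mean of the receptor genes per length in each group, but in C57BL/6 this rested on replicate 7. Without it Ptger3 was at 3.69 and Ptger4 at 3.30 CPM per kb, and Ptger4 was above Ptger3 in 5 of the 8 C57BL/6, 6 of the 7 Winnie and 7 of the 7 Winnie-Prolapse libraries. It held 18.9 to 64.5 CPM in C57BL/6 (median 22.4), 16.1 to 29.3 CPM in Winnie (median 20.02) and 20.7 to 27.6 CPM in Winnie-Prolapse (median 25.4). The groups overlapped, and the C57BL/6 maximum was replicate 7, the next library holding 25.3 CPM. For Ptger4 the log2 fold change was -0.26 in Winnie (95% confidence interval -0.79 to 0.26, edgeR adjusted p = 0.455) and -0.050 in Winnie-Prolapse (-0.55 to 0.45, adjusted p = 0.871). Without C57BL/6 replicate 7 these were 0.049 (edgeR adjusted p = 0.81) and 0.28 ± 0.09 (adjusted p = 0.0124), the latter below the 1.5-fold limit. A processed pseudogene on the other strand overlaps 15.3% of the Ptger4 exon bases, with a mean of 0.121 CPM.

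Ptger2 (ENSMUSG00000037759, chr14:44988195-45003820, plus strand) was the lowest receptor gene, with 0.581 to 4.02 CPM in C57BL/6 (median 1.20), 0.971 to 1.38 CPM in Winnie (median 1.12) and 1.12 to 2.46 CPM in Winnie-Prolapse (median 1.37). C57BL/6 replicate 7 held 4.02 CPM and the next C57BL/6 library 1.43 CPM, and the groups overlapped. Its log2 fold change was -0.24 in Winnie (95% confidence interval -0.94 to 0.47, edgeR adjusted p = 0.623) and 0.22 in Winnie-Prolapse (-0.56 to 1.0, adjusted p = 0.632). Without C57BL/6 replicate 7 it was 0.19 in Winnie and 0.66 in Winnie-Prolapse, and the latter passed the second rule (edgeR adjusted p = 0.0404).

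**Figure D4:**
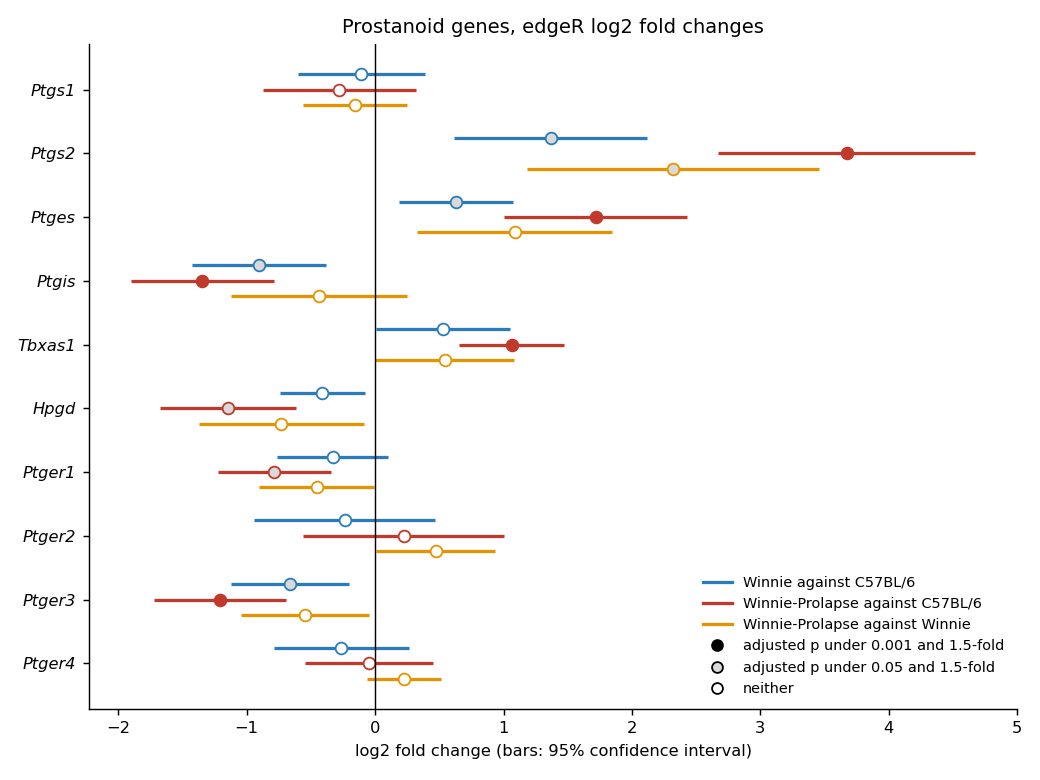
Log2 fold change of each gene from edgeR with its 95% confidence interval (not adjusted for the number of genes) in the 3 comparisons; filled points passed an adjusted p of 0.001 and 1.5-fold, grey points an adjusted p of 0.05 and 1.5-fold, open points neither. Ptgs2 at 3.67 in Winnie-Prolapse against C57BL/6 is the largest value, and Ptgs1, Ptgis, Hpgd, Ptger1 and Ptger3 lie below 0 in all 3 comparisons, Ptgs1 passing neither rule in any.

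Both sexes were in every group. With sex as a term over all 3 groups, edgeR gave 14 genes an adjusted p under 0.05 and none of the 10 genes was among them. Of 30 tests of whether a group difference of these genes differed between males and females, 0 had an adjusted p under 0.05. With sex as a covariate, 5 of the 10 genes were called in Winnie-Prolapse against C57BL/6, and 7 passed the second rule, where 3073 and 5988 of the 17397 genes tested did so.

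Other genes of the pathway were taken from 6 lists of 48 genes in all, and their calls are given for Winnie-Prolapse against C57BL/6 unless stated. Of all genes tested in that comparison, 9.84% were called higher and 8.47% lower. By the second rule 16.7% were higher and 17.7% lower, and the list counts should be read beside these shares. Of 10 genes for arachidonate release, 1 was called and 2 passed the second rule, all higher, and the median log2 fold change of the list was 0.52, where that of all genes tested was -0.01. The called gene was Pla2g2a, a secreted phospholipase of the intestine, at 1.40 ± 0.79 CPM in C57BL/6 and 101 ± 42.3 CPM in Winnie-Prolapse (log2 fold change 6.26 ± 0.43, edgeR adjusted p = 4.52e-08). In Winnie, Pla2g2a had a log2 fold change of 4.47 ± 0.60 and Pla2g5, also secreted, 1.33 ± 0.25, and both passed the second rule. The cytosolic phospholipase genes Pla2g4a and Pla2g4f, the secreted Pla2g10 and the lipase gene Mgll, the most abundant of the list, had log2 fold changes of 0.29, 0.63, -0.09 and 1.15 in Winnie-Prolapse and passed neither rule.

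Of 8 other prostanoid synthase genes, 7 were tested, 1 was called lower, and the second rule found 3 lower and 1 higher, with a list median of -0.48. Cbr1, a carbonyl reductase that acts on prostaglandin E2, was the called gene, at 176 ± 23.4 CPM in C57BL/6 and 77.8 ± 31.0 CPM in Winnie-Prolapse (log2 fold change -1.09 ± 0.22, edgeR adjusted p = 0.000653). Ptges2 and Ptges3, the other prostaglandin E synthase genes, had log2 fold changes of -0.41 and 0.19 and Akr1b3 -0.48, all under 1.5-fold. Of 6 other prostanoid receptor genes, 4 were tested. Tbxa2r, the thromboxane receptor gene, was called lower (-0.96 ± 0.20, edgeR adjusted p = 0.000931), while Tbxas1, which makes its ligand, was called higher. Ptgfrn, a negative regulator of the prostaglandin F receptor, was called higher (0.63 ± 0.10, edgeR adjusted p = 9.09e-05). The prostacyclin receptor gene Ptgir had a log2 fold change of 0.28 and the prostaglandin F receptor gene Ptgfr 0.15, and neither passed a rule. The median over the 4 was 0.21. Without Winnie-Prolapse replicate 6 neither Cbr1 nor Tbxa2r met the first rule, and Tbxa2r also missed it without C57BL/6 replicate 7.

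Of 6 genes for uptake, export and breakdown other than Hpgd, 1 was called higher and the second rule added 2 lower, with a list median of -0.32. Abcc4, an exporter of prostaglandins, was the called gene, at 17.0 ± 3.88 CPM in C57BL/6 and 36.4 ± 17.1 CPM in Winnie-Prolapse (log2 fold change 1.16 ± 0.23, edgeR adjusted p = 0.000744). Slco2a1, the uptake carrier that works ahead of Hpgd, was lower by the second rule, from 277 ± 82.2 CPM to 133 ± 64.0 CPM (log2 fold change -0.96 ± 0.30, edgeR adjusted p = 0.0129). The reductase genes Ptgr2 and Zadh2 had log2 fold changes of -0.52 and -0.13, and Cbr3 -0.84. Without Winnie-Prolapse replicate 6 no gene of this list met the first rule.

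The leukotriene and lipoxygenase arm, which uses the same arachidonic acid, had 12 genes, of which 11 were tested, 3 were called higher and 0 lower, and 6 were higher and 1 lower by the second rule, with a list median of 0.81. The called genes were the lipoxygenase gene Alox12 (log2 fold change 3.74 ± 0.55, edgeR adjusted p = 5.75e-05) and the leukotriene B4 receptor genes Ltb4r1 (2.39 ± 0.31, 2.07e-05) and Ltb4r2 (1.71 ± 0.27, 0.000105). Alox5ap, the activating protein of 5-lipoxygenase, was higher by the second rule (2.08 ± 0.46), and Lta4h and Alox15 had log2 fold changes of 0.07 and 0.27. Squamous epithelial markers, which are known to go with some lipoxygenases, were at 2.33 to 3325 CPM in Winnie-Prolapse, with all 4 tested called higher. Among them, Krt13 and Krt6b held at most 19 and 3 counts in any C57BL/6 library. These genes passed the filter on low counts through Winnie-Prolapse, so a lower call was hardly possible for them. The part of squamous epithelium in the Alox12 result was not tested. Of 6 cytokine and receptor genes known to induce Ptgs2, 5 were tested and 4 were called higher, with a list median of 3.13. These were Il1a (6.94 ± 0.74, edgeR adjusted p = 3.6e-06), Il1b (6.93 ± 0.60, 4.83e-07), Tnf (3.13 ± 0.52, 0.000152) and Tnfrsf1a (1.39 ± 0.15, 2.85e-06), and Il1r1 had 0.65 ± 0.18 by the second rule. In Winnie, Il1b had a log2 fold change of 3.77 ± 0.66 and Tnfrsf1a 0.75 ± 0.18, both passing the second rule.

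Between Winnie and C57BL/6 the first rule called none of these 6 lists' genes. The second rule found 2 higher of 10 for arachidonate release, 1 lower of 7 for the other synthases, 1 lower of 4 for the other receptors, 0 of 6 for uptake, export and breakdown, 2 higher of 10 for the leukotriene arm and 2 higher of 4 for the cytokine inducers, where 7.42% of all genes tested were higher and 8.53% lower. In Winnie-Prolapse against Winnie the first rule again called none, and the second found Pla2g2a higher, Hpgds, Cbr1 and Cbr3 lower, 4 genes of the leukotriene arm higher and 3 cytokine genes higher, where 6.99% of all genes passed.

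**Figure D5:**
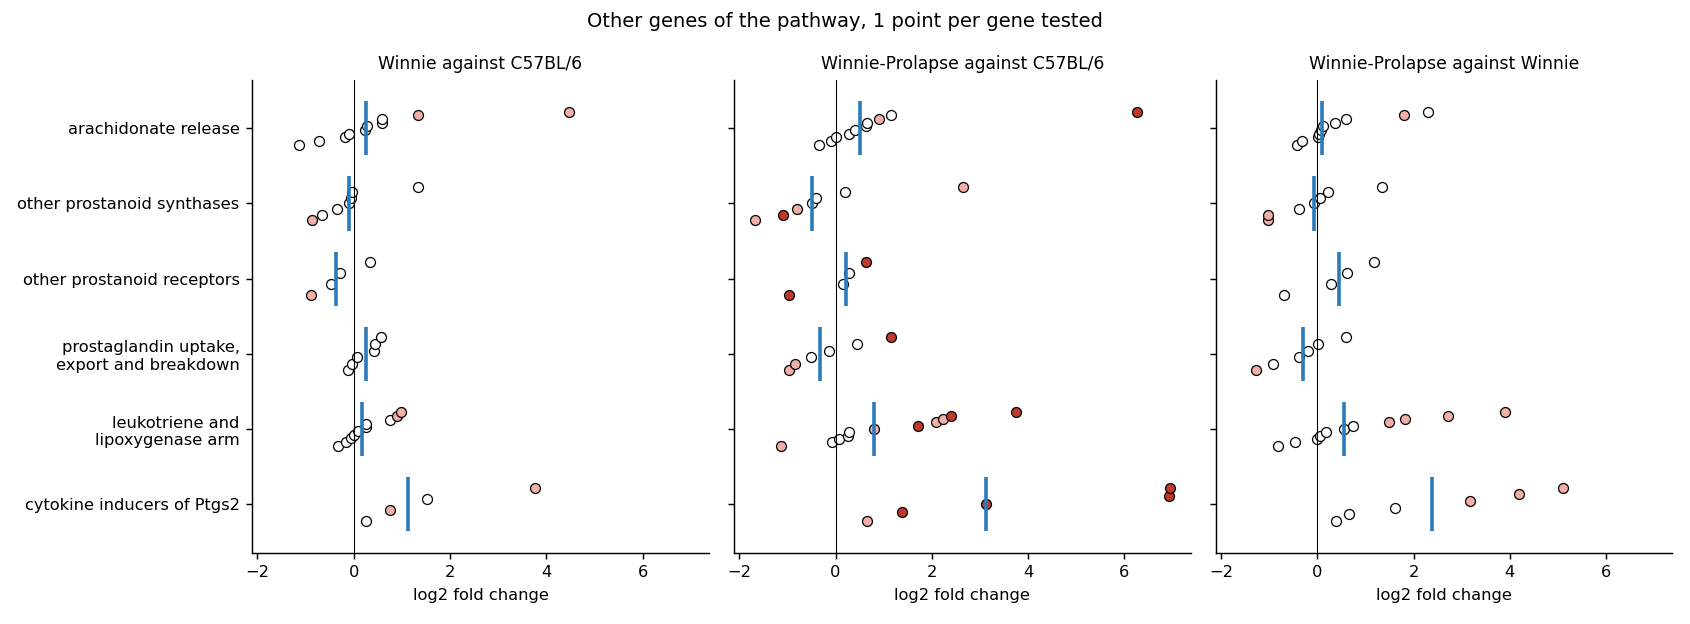
Log2 fold changes of the other pathway genes in 6 lists, 1 point per gene tested, for the 3 comparisons; dark points were called (adjusted p under 0.001 and 1.5-fold), light points passed an adjusted p of 0.05 and 1.5-fold, open points neither, and blue lines are list medians. In Winnie-Prolapse against C57BL/6 the cytokine list has the highest median, 3.13, and the other synthases the lowest, -0.48.

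Within groups, the 10 genes varied alongside different sets of genes. For each of the 10, the genes with the most similar log2 CPM after subtracting each group mean were listed over the 22 libraries, among 13600 genes. Libraries share depth and tissue composition, so these correlations are descriptions. Ptgs2 was most like Ptpn12 (Pearson r = 0.87), Ereg (0.86) and Plaur (0.85). Ptges was most like Cd33 (0.87), Tgfb1 (0.87) and Snai1 (0.87). Tbxas1 was most like Fcgr1 (0.83), C1qb (0.82) and C1qc (0.82), and C1qb is in the macrophage list above. Ptgis was most like Chrm2 (0.95), a muscarinic receptor gene of smooth muscle, then Kcnd3 (0.92) and Mxra7 (0.90). Hpgd was most like Fahd1 (0.90), Gal3st1 (0.89) and Prr15l (0.89). Ptger3 was most like Ms4a10 (0.85), Gm13375 (0.84) and Oas1c (0.84), and Ptger1 like Opn3 (0.76), Cops4 (0.64) and Ass1 (0.62).

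The closest genes of the other 3 rested partly on C57BL/6 replicate 7. Ptgs1 was most like Tmigd1 (r = 0.84, and 0.64 without that library), Abhd4 (0.84 and 0.63) and Rhod (0.84 and 0.71). Ptger2 was most like Rassf4 (0.83 and 0.66), Dok1 (0.83 and 0.57) and Elmsan1 (0.79 and 0.51). Ptger4 was most like Ncoa7 (0.87 and 0.44), 1700024P16Rik (0.85 and 0.57) and Lpin2 (0.85 and 0.53). Among the 10 genes themselves, Ptgs2 and Ptges had r = 0.55 over 22 libraries and 0.72 without that library, and Ptgs2 and Hpgd -0.43 either way.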

How the data were processed

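Raw counts per gene, deposited as 1 table of all 22 libraries, were used as given. Per the study's methods the authors aligned reads with the RNAsik pipeline to GRCm38 and counted them with featureCounts, and the submitters' processing notes name STAR, featureCounts, limma and GRCm38 without giving their roles. The annotation release, the handling of multi-mapped reads and the strand setting are not given in the sources used here; the kit was stranded.

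Differences were tested on these counts in R 4.3.3 with edgeR 4.0.16 (trimmed mean of M-values normalisation, filterByExpr with a minimum count of 10, quasi-likelihood F test, Benjamini-Hochberg adjustment over all genes tested), with the 2 groups compared in each fit and the study's limits of an adjusted p of 0.001 and 1.5-fold. DESeq2 1.42.0 was an alternative. The script was tested on simulated data. CPM were counts scaled to a library total of 1000000, and exon lengths came from GENCODE M21 on GRCm38. No pair of libraries was a duplicate: chi-square values over genes, divided by their degrees of freedom, were 28.8 or more for each pair within a group. P-values measure the spread between these mice. CPM floors and depth cover counting error only. The 10 genes and the lists were chosen with earlier results of these data known. Named genes were the 10, from each pathway list the 4 most abundant and any called, and for each of the 10 its 3 most similar genes. Alox5ap, Slco2a1, Cbr3, Pla2g5, Il1r1, Hpgds, Ptgir, Ptgfr and S100a8 with Ly6g were named in addition, some after their values were seen. S100a9, Cxcr2, Csf3r, Retnlg, Mpo, Mcpt2, Krt13 and Krt6b were also named after their values were seen. Alternatives were no normalisation factors, DESeq2, the bias-adjusted quasi-likelihood fit, no filter, a floor of 10 counts for each library, adding sex to the model, a joint fit of the 3 groups, an adjusted p of 0.05, a pseudocount of 0.1 CPM for ratios, and leaving out each library.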

Additional observations from a re-analysis of the deposited data

Results flagged for a closer look

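In 36 groups of values, 8 had a highest or lowest library far from the others by Dixon's test, which by chance marks about 1 in 20 groups. C57BL/6 replicate 7 was the high library for Ptgs1 (48.6 CPM, next 19.9 CPM), Ptger2 (4.02 CPM, next 1.43 CPM) and Ptger4 (64.5 CPM, next 25.3 CPM). Winnie-Prolapse replicate 4 was the high library for Ptgs2 (192 CPM, next 77.6 CPM) and Ptges (73.5 CPM, next 22.5 CPM). Ptgs2 was also high in Winnie replicate 2 (32.2 CPM, next 17.3 CPM). Ptgis was high in Winnie-Prolapse replicate 3 (7.17 CPM, next 3.86 CPM), and Ptger4 was low in Winnie-Prolapse replicate 6 (20.7 CPM, next 24.8 CPM). The total of replicate 6 holds 18.0% mammary counts, which lowers the CPM of its other genes, so its low Ptger4 value depends on those counts.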

How the results depend on the processing

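Among the alternatives that changed a setting and kept the libraries, none reversed the direction of any of the 10 genes. Without C57BL/6 replicate 7 the log2 fold change against C57BL/6 took the opposite sign for some genes. Leaving out each library in turn, it ran from -0.18 to 0.20 for Ptgs1, -0.36 to 0.19 for Ptger2 and -0.34 to 0.049 for Ptger4 in Winnie, and from -0.47 to 0.046 for Ptgs1 and -0.13 to 0.28 for Ptger4 in Winnie-Prolapse, the highest value in each being the one without that library; without Winnie-Prolapse replicates 6 and 7, added after seeing the data, Ptger2 in Winnie-Prolapse against C57BL/6 became -0.043. The cause was not tested. The number of the 10 called in Winnie-Prolapse against C57BL/6 was 2 to 6 over fits that left out 1 library, and 1 without Winnie-Prolapse replicates 6 and 7; the second rule gave 7 to 8. With all libraries, DESeq2 called 7 there, the fit of all 3 groups 6 and the fit without the filter 4. In Winnie against C57BL/6 these were 0 to 0 and 2 to 5 (3 by the second rule without normalisation factors or with all 3 groups), and in Winnie-Prolapse against Winnie 0 to 0 and 0 to 3. DESeq2 called 1 of the 10 in Winnie-Prolapse against Winnie and 2 by the second rule, as did the fit of all 3 groups (2). Without the filter on low counts, Ptger3 missed the first rule in Winnie-Prolapse against C57BL/6 (edgeR adjusted p = 0.00119).

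Counts over all genes also moved. In Winnie against C57BL/6, 16 genes were called, 8 without normalisation factors, 1227 with DESeq2, 30 with the bias-adjusted fit, 68 without the filter, 0 with at least 10 counts in every library, 199 with all 3 groups, and 0 to 677 (second rule 1934 to 3670) leaving out 1 library. In Winnie-Prolapse against C57BL/6, DESeq2 called 5011 genes, and leaving out 1 library gave 2517 to 3657 (second rule 5648 to 6479); without Winnie-Prolapse replicates 6 and 7 it was 2199 of 3186 (second rule 5746 of 5981). In Winnie-Prolapse against Winnie, DESeq2 called 653 genes (second rule 2515), all 3 groups 42 (1793), the fit without Winnie-Prolapse replicates 6 and 7 gave 232 by the second rule, and leaving out 1 library gave 0 to 1 (432 to 1894). No paired analysis was possible because the labels give no replicate numbers that tie mice across groups. Counts per library were low for Ptger2 (17 to 111), Tbxas1 (32 to 143) and Ptger1 (36 to 144), which limits their precision. The list counts without C57BL/6 replicate 7, without Winnie-Prolapse replicate 6, and without replicates 6 and 7 together were also added after seeing the data.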
